A study of Mus musculus with 4 samples.

Results

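The p53 target genes are genes whose transcription is switched on by the tumor suppressor p53, the protein product of Trp53. A list of 31 gene names was read in the expression values of 4 mouse oral cancer cell lines, and 30 of them matched a gene among the 34685 gene identifiers of the data. The remaining name, Tap53, matched no gene symbol of GENCODE M21. The lines come from male C57BL/6 mice whose buccal mucosa was painted with the carcinogen DMBA on a cotton swab. AOC3 was derived from the oral tumor and AOC3-LN from the cervical lymph node metastasis of the same animal, and AOC11 and AOC11-LN were derived in the same way from another animal. All 4 lines share the carcinogen, the strain, passage under the skin of mice, depletion of fibroblasts and culture in medium with serum, and none was given a further treatment. The study lists a longer period of carcinogen challenge for the AOC11 lines than for the AOC3 lines, which cannot be told apart from the other differences between the mice. The study's variant list places a stop-gain variant of Trp53 in both AOC3 lines, and a nonsynonymous variant together with a stop-gain variant at another position in both AOC11 lines. Reads with the reference base are listed at each of these positions too.

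Each line was sequenced as 1 library of cultured cells, so each pair of lines is a single mouse and the difference between the pairs cannot be told apart from the difference between 2 mice. Expression is given in FPKM, that is, fragments per kilobase of transcript and per unit of library size, which allows levels to be compared between genes. From the spacing of low FPKM values the libraries were estimated to hold between 28200000 and 33800000 fragments. Epithelial markers were detected at or above 1 FPKM for 7 of 7 genes, with summed levels of 2795 to 3535 FPKM. Fibroblast markers reached 1 FPKM in no line for any of 7 genes, with sums of 0.246 to 1.05 FPKM, and endothelial markers for none of 4. Macrophage markers reached it for 3 of 6, Cd68, Cd14 and Csf1r, with sums of 16.8 to 33.8 FPKM, while the defining marker Adgre1 was listed at 0 in every line. Of 5 T cell markers only Trac reached it. In bulk RNA, fewer expressing cells and less RNA per cell cannot be told apart.

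p53 is a transcription factor that is kept scarce by the ubiquitin ligase Mdm2 and accumulates after DNA damage or oncogene activity. It then binds paired short DNA sites near its target genes, which halt the cell cycle, drive apoptosis, repair nucleotide pools, alter metabolism and, through Mdm2 itself, switch p53 off again. Trp53 is among the genes most often mutated in squamous cancers of the human head and neck. Some targets also answer to other regulators, such as the stress factor ATF4 or growth signals, and can be expressed where p53 is not working.

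The binding element of p53 consists of a pair of decamers, each made of 3 purines, C, an A or T at each of 2 positions, G and 3 pyrimidines, which reads the same on both strands. This motif was searched in RefSeq promoter windows (GRCm38.p6) running from 250 bases before to 50 bases after each transcript start. Of the 30 genes, 24 had a window, and a decamer was found for 9 of them (37.5%), beside 9.55% of the 27025 genes with a window. A pair of decamers at most 13 bases apart was present in only 24 of all 32851 windows (0.0731%), and 1 of these 24 was an upstream window of Cdkn1a. Only exact decamers were marked. The Cdkn1a bases tgacatgttc right after the second decamer depart from the motif at their first base and stay in lower case. Positions given here and for the sequences below are those of the printed stretches, flanks included. The stretch of Cdkn1a that holds the pair covers chr17:29090891-29090952 on the plus strand, before the first annotated exon. It is shown because Cdkn1a is 1 of the genes with the largest difference between the mice, with both decamers in capitals and a spacer of 12 bases between them:
Cdkn1a: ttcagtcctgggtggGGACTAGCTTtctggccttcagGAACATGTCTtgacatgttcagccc

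Single decamers of the other 8 genes are shown in capitals because each of these genes differed by less than 2-fold between the mice. Those of Mdm2 (chr10:117710925-117710954, minus strand), Bax (chr7:45467080-45467109, minus strand), Ccng1 (chr11:40755452-40755481, minus strand) and Ppm1d (chr11:85311112-85311141, plus strand) lie upstream of the gene. Those of Gadd45a (chr6:67037428-67037457, minus strand), Aen (chr7:78895927-78895956, plus strand) and Ei24 (chr9:36797325-36797354, minus strand) lie in an exon, and that of Sesn1 (chr10:41887256-41887285, plus strand) lies in an intron, near a later annotated start.
Mdm2: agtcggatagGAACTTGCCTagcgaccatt
Bax: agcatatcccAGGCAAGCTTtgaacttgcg
Ccng1: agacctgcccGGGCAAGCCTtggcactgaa
Ppm1d: gggcgggggcGAGCTTGCTCttcttgactc
Gadd45a: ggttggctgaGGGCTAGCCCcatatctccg
Aen: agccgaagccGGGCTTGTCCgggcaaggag
Ei24: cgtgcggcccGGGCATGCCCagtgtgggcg
Sesn1: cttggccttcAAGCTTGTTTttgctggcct

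The cyclic AMP response element TGACGTCA, which is bound by CREB and ATF factors and reads the same on both strands, was searched in the same windows. It occurred in a window of 3 of the 24 genes (12.5%), upstream of each, beside 2.03% of all genes with a window. These were Btg2 (chr1:134079304-134079331, minus strand), Ppm1d (chr11:85311159-85311186, plus strand) and Plk2 (chr13:110394972-110394999, plus strand). They are shown, with the element in capitals, because Plk2 and Btg2, the arrest genes among them, differed in opposite directions between the mice.
Btg2: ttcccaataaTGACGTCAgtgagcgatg
Ppm1d: gcgagccgagTGACGTCAtcaggagaaa
Plk2: gcgctcgccgTGACGTCAcgaggccccg

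Most of the p53 target genes were expressed in all 4 lines. A filter of at least 1 FPKM in at least 1 line was passed by 29 of the 30 genes, 27 of them through lines of both mice, Gdf15 only through the AOC3 lines and Fas only through the AOC11 lines. Eda2r, a receptor of the tumor necrosis factor family, did not pass, with 0.0323 FPKM in AOC3 and 0.0892 in AOC3-LN, against 0.0488 in AOC11 and 0.0221 in AOC11-LN. The median gene of the 29 stood at percentile 51.2 of the expression levels of the 14165 genes that passed the filter. Ddit4, Perp and Plk2 had the highest mean levels. The ratio of the highest to the lowest line was under 1.5 for 8 of the 30 genes and at least 3 for 8, and it ran from 1.24 for Ccng1 to 187 for Gdf15.

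**Figure D1:**
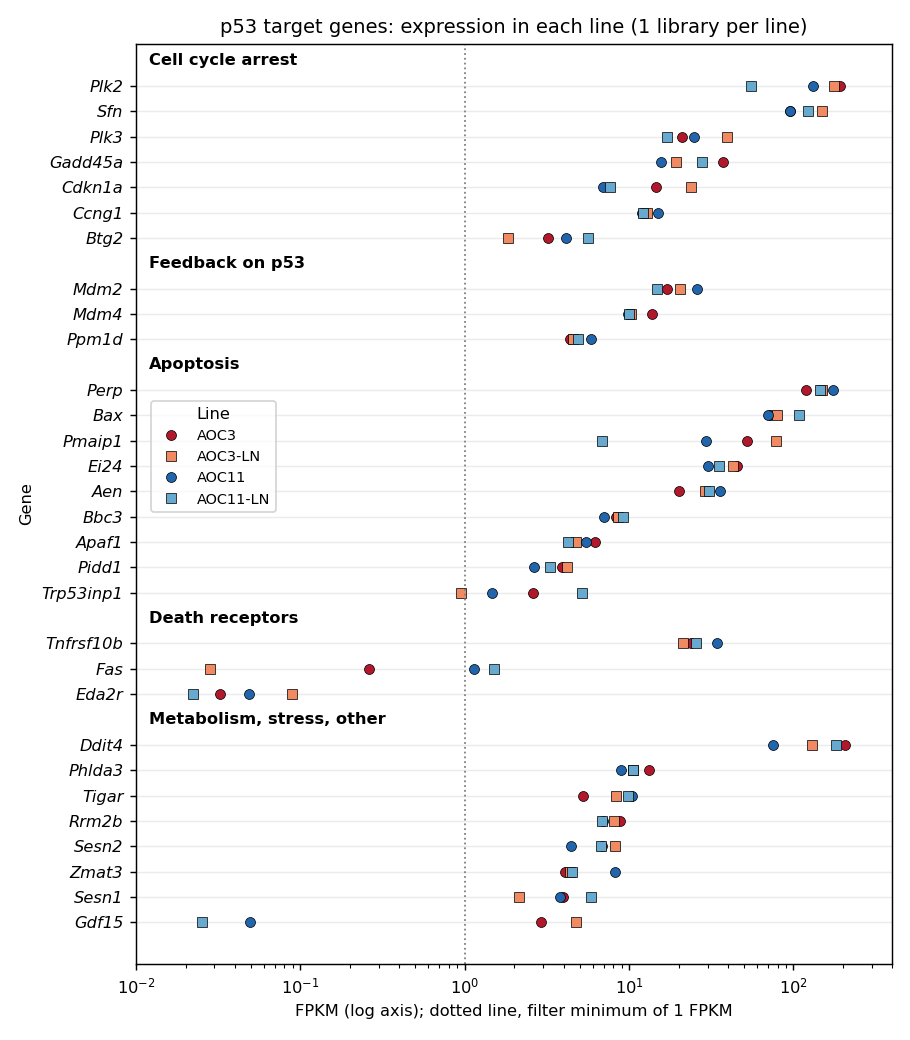
FPKM of each of the 30 p53 target genes (log axis) in AOC3 and AOC11 (circles) and AOC3-LN and AOC11-LN (squares), 1 library per line, grouped by role, with a dotted line at 1 FPKM. For most genes the 4 symbols lie close together, while those of Gdf15, Fas, Pmaip1 and Trp53inp1 are far apart.

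Comparing the AOC3 lines with the AOC11 lines asks how far cultured lines from tumors of separate mice differ in the expression of p53 target genes. Cdkn1a, Pmaip1, Plk2 and Gdf15 were more than 2-fold higher in the AOC3 lines, and no p53 target gene was more than 2-fold higher in the AOC11 lines. Among all 14165 genes 5.10% passed this threshold toward the AOC3 lines and 6.0% toward the AOC11 lines, beside 4 of 29 (13.8%) and 0 of 29. Gdf15, 1 of the 4, passed the filter only through the AOC3 lines, so it had to differ and adds no support to that share. The 0 depends on the setting, since Fas passed toward the AOC11 lines when the pseudocount was 0.1 (-2.64), when quantile normalization was left out (-1.02), without AOC3 (-1.13) and without AOC11-LN (-1.03), and Trp53inp1 without AOC11 (-1.10). Between the primary lines alone 3 genes passed, Gdf15 at 1.85, Ddit4 at 1.47 and Gadd45a at 1.27, so that Gdf15 was the only 1 of the 4 among them. All differences are of quantile-normalized log2(FPKM + 1) values, the mean of both AOC3 lines minus the mean of both AOC11 lines, a scale that understates the change of genes with low values. limma with Benjamini-Hochberg adjustment over all genes, in which the 2 lines of a mouse take the place of replicates, called 0 of the 29 genes and 0.205% of all genes. At an unadjusted p under 0.05 limma counted 5 of the 29 (17.2%) beside 18.7% of all genes, so the share was near the background. Gdf15 and Fas are counted in the 5, and each passed the filter only through the lines of 1 mouse. The median difference was 0.20, with 17 genes above and 12 below 0, beside a median of 0.01 over all genes. The values of the AOC3 and AOC11 lines did not overlap for 16 of the 29 genes (55.2%), beside 53.1% of all genes. Gdf15 and Fas are among the 16. Of the 29 genes, 10 (34.5%) stood higher in the AOC3 lines without overlap, beside 26.3% of all genes. In the AOC11 lines 6 of the 29 (20.7%) were higher without overlap, beside 26.7% of all genes. The median standard deviation over the 4 lines was 0.33 for the 29 genes and 0.31 for all genes.

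**Figure D2:**
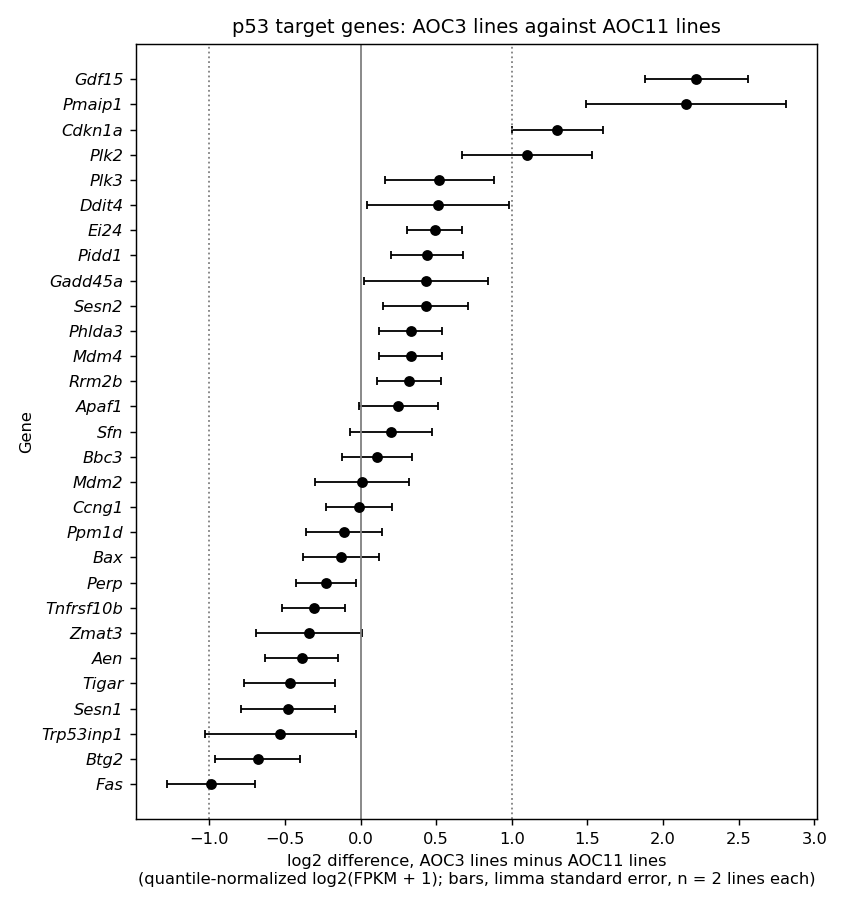
Difference between the AOC3 and AOC11 lines for each of the 29 p53 target genes that passed the filter, in log2 units of quantile-normalized FPKM + 1, with limma standard errors (2 lines per mouse) and dotted lines at 1 and -1. Gdf15, Pmaip1, Cdkn1a and Plk2 lie above 1, Fas lies at -0.99, and the other genes lie between -0.68 and 0.52.

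Among the genes of cell cycle arrest, 2 of 7 were more than 2-fold higher in the AOC3 lines. Cdkn1a (ENSMUSG00000023067.14, chr17:29090976-29100727) encodes p21, the inhibitor of cyclin-dependent kinases that carries most of the arrest response to p53. It was measured at 14.6 FPKM in AOC3 and 23.8 in AOC3-LN, against 6.97 in AOC11 and 7.64 in AOC11-LN. Both AOC3 lines stood above both AOC11 lines, with a log2 difference of 1.30 (SE 0.30, n = 2 lines per mouse, limma adjusted p = 0.142). The size rested partly on AOC3-LN, since it was 0.94 without that line. Plk2 (ENSMUSG00000021701.8, chr13:110395046-110400844), a polo-like kinase of the G1 phase, was measured at 193 FPKM in AOC3 and 176 in AOC3-LN, against 132 in AOC11 and 55.1 in AOC11-LN. AOC11-LN stood lowest and the groups did not overlap, with a log2 difference of 1.10 (SE 0.43, limma adjusted p = 0.272). Without AOC11-LN the difference of Plk2 was 0.46, and without AOC11 it was 1.74.

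The other arrest genes differed by less than 2-fold between the means of the mice. Btg2, an antiproliferative gene, was the 1 arrest gene with both AOC11 lines above both AOC3 lines, at 3.21 FPKM in AOC3 and 1.84 in AOC3-LN, against 4.11 in AOC11 and 5.60 in AOC11-LN. Its log2 difference was -0.68 (SE 0.28, limma adjusted p = 0.288). Ccng1, or cyclin G1, was the most even of all the p53 target genes, between 12.0 and 15 FPKM in the 4 lines. Sfn, which encodes the 14-3-3 sigma protein of keratinocytes, was high in every line, between 95.1 and 150 FPKM, with a difference of 0.20 (SE 0.27). Plk3, a stress-responsive polo-like kinase, ranged from 17.1 FPKM in AOC11-LN to 39.3 in AOC3-LN, with a difference of 0.52 (SE 0.36). Gadd45a, a growth arrest and DNA damage gene, ranged from 15.6 FPKM in AOC11 to 37.4 in AOC3, with a difference of 0.43 (SE 0.41). Its exons share 337 bases with those of the antisense gene E230016M11Rik, listed at 2.76 to 8.01 FPKM. The methods name default parameters for the counting, taken here to mean that strand was not used. In that case reads that lie within the shared bases cannot be told apart between the 2 genes.

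The genes through which p53 is switched off were near even between the mice. Mdm2 (ENSMUSG00000020184.15, chr10:117688875-117710758), the ubiquitin ligase that marks p53 for degradation and is itself a p53 target, was measured at 17.1 FPKM in AOC3 and 20.3 in AOC3-LN, against 25.8 in AOC11 and 14.7 in AOC11-LN. The AOC11 lines held both the highest and the lowest value, and the log2 difference was 0.01 (SE 0.31, limma adjusted p = 0.994). Mdm4, a partner of Mdm2 that blocks the activation domain of p53, lay between 9.87 and 13.8 FPKM, with a difference of 0.33 (SE 0.21). Ppm1d, the phosphatase that reverses damage signaling to p53, lay between 4.38 and 5.87 FPKM, with a difference of -0.11 (SE 0.25).

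Among 9 genes of apoptosis, Pmaip1 alone passed the 2-fold threshold between the mice. Pmaip1 (ENSMUSG00000024521.8) encodes Noxa, a BH3-only protein that neutralizes the survival protein Mcl1. It was measured at 52.1 FPKM in AOC3 and 78.6 in AOC3-LN, against 29.3 in AOC11 and 6.81 in AOC11-LN, so that AOC11-LN stood far below the other lines. The log2 difference was 2.15 (SE 0.66, limma adjusted p = 0.205). It was 1.18 without AOC11-LN and 3.13 without AOC11, and it was 0.90 between the primary lines and 3.40 between the lymph node lines.

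Bbc3 and Bax, both central to p53-driven cell death, did not follow Pmaip1. Bbc3 (ENSMUSG00000002083.13, chr7:16308393-16318205), which encodes the BH3-only protein Puma, was measured at 8.30 FPKM in AOC3 and 8.50 in AOC3-LN, against 7.05 in AOC11 and 9.24 in AOC11-LN. Its log2 difference was 0.11 (SE 0.23, limma adjusted p = 0.810), and the groups overlapped. Bax (ENSMUSG00000003873.11, chr7:45461697-45466898), which encodes the pore-forming protein of the mitochondrial outer membrane, was measured at 71.8 FPKM in AOC3 and 79.9 in AOC3-LN, against 69.7 in AOC11 and 108 in AOC11-LN. Its log2 difference was -0.13 (SE 0.25, limma adjusted p = 0.792), with the AOC11 lines at both ends of the range.

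Perp (ENSMUSG00000019851.8, chr10:18845020-18857073), a membrane protein of desmosomes in stratified epithelia, was measured at 119 FPKM in AOC3 and 149 in AOC3-LN, against 174 in AOC11 and 144 in AOC11-LN. It was among the most abundant of these transcripts and varied by 1.47 times between the lines. Ei24, a protein of the endoplasmic reticulum, was between 43.0 and 45.5 FPKM in the AOC3 lines and between 30.2 and 35.3 in the AOC11 lines, with a log2 difference of 0.49 (SE 0.18, limma unadjusted p = 0.0429, adjusted p = 0.254). Apaf1, the scaffold of the apoptosome, lay between 4.22 and 6.17 FPKM, and Pidd1, a death domain protein, between 2.63 and 4.21 FPKM. Aen, a nuclease of apoptotic cells, ranged from 20.2 FPKM in AOC3 to 35.5 in AOC11. None of these 5 genes reached a 2-fold difference. Trp53inp1, a stress protein that promotes p53 phosphorylation, was measured at 2.60 FPKM in AOC3 and 0.946 in AOC3-LN, against 1.46 in AOC11 and 5.19 in AOC11-LN. It differed more within each mouse than between the means of the mice, with a log2 difference of -0.53 (SE 0.50, limma adjusted p = 0.592) between the means. Between the primary lines its difference was 0.42, and between the lymph node lines it was -1.48.

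Of the death receptors, Fas was low and uneven and Tnfrsf10b was expressed in every line. Fas (ENSMUSG00000024778.13, chr19:34290666-34327772), the receptor of Fas ligand, was listed at 0.263 FPKM in AOC3 and 0.0282 in AOC3-LN, against 1.14 in AOC11 and 1.5 in AOC11-LN. Both AOC11 lines stood above both AOC3 lines, with a log2 difference of -0.99 (SE 0.29, limma adjusted p = 0.187), just inside the 2-fold threshold. The level of AOC3-LN corresponds to at most 1 estimated fragment and that of AOC3 to 5 to 14, depending on the transcript, so these values are imprecise, and with a pseudocount of 0.1 the difference was -2.64. Fas passed the filter only through the AOC11 lines, so its p-value is no support for the difference. Tnfrsf10b, the mouse receptor of the ligand TRAIL, lay between 21.3 and 23.7 FPKM in the AOC3 lines and between 25.5 and 34.1 in the AOC11 lines, with a difference of -0.31 (SE 0.21).

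Among 8 genes of metabolism, stress and other functions, Gdf15 differed most. Gdf15 (ENSMUSG00000038508.7, chr8:70629393-70632456), a secreted stress hormone of the TGF-beta superfamily, was listed at 2.90 FPKM in AOC3 and 4.73 in AOC3-LN, against 0.0494 in AOC11 and 0.0252 in AOC11-LN. It was expressed at a low level in both AOC3 lines and stood near 0 in both AOC11 lines. The log2 difference was 2.22 (SE 0.34, unadjusted p = 0.00123, limma adjusted p = 0.0943). In the AOC11 lines these levels correspond to 1 to 3 estimated fragments, beside 134 to 206 in the AOC3 lines, so the size of the change depends on the pseudocount and was 4.85 with 0.1. Gdf15 passed the filter only through the lines in which it was high, so it had to differ, and its p-values are no support for the difference. Without the filter its limma adjusted p was 0.287, and over 10 alternatives it ran from 0.0400 to 0.378.

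The remaining stress genes differed by less than 2-fold between the means of the mice. Ddit4 (ENSMUSG00000020108.4, chr10:59949669-59951834), also called Redd1, an inhibitor of mTORC1 signaling, was measured at 207 FPKM in AOC3 and 130 in AOC3-LN, against 74.7 in AOC11 and 181 in AOC11-LN. It was the most abundant of these transcripts by mean level, with its highest and lowest values in the primary lines, and its log2 difference was 0.51 (SE 0.47, limma adjusted p = 0.588). The difference of Ddit4 was 1.14 without AOC11-LN, -0.12 without AOC11, 0.19 without AOC3 and 0.83 without AOC3-LN. The sestrins Sesn1 and Sesn2, which restrain mTORC1, pointed in opposite directions, with differences of -0.48 (SE 0.31) and 0.43 (SE 0.28). Tigar, a bisphosphatase that slows glycolysis, had its lowest value in AOC3, 5.26 FPKM, and its highest in AOC11, 10.4 FPKM. Rrm2b, the p53-induced subunit of ribonucleotide reductase, lay between 6.88 and 8.81 FPKM, and Phlda3, a repressor of Akt, between 8.93 and 13.2 FPKM. Zmat3, an RNA-binding protein, was at 8.21 FPKM in AOC11 and between 4.09 and 4.52 in the other lines.

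**Figure D3:**
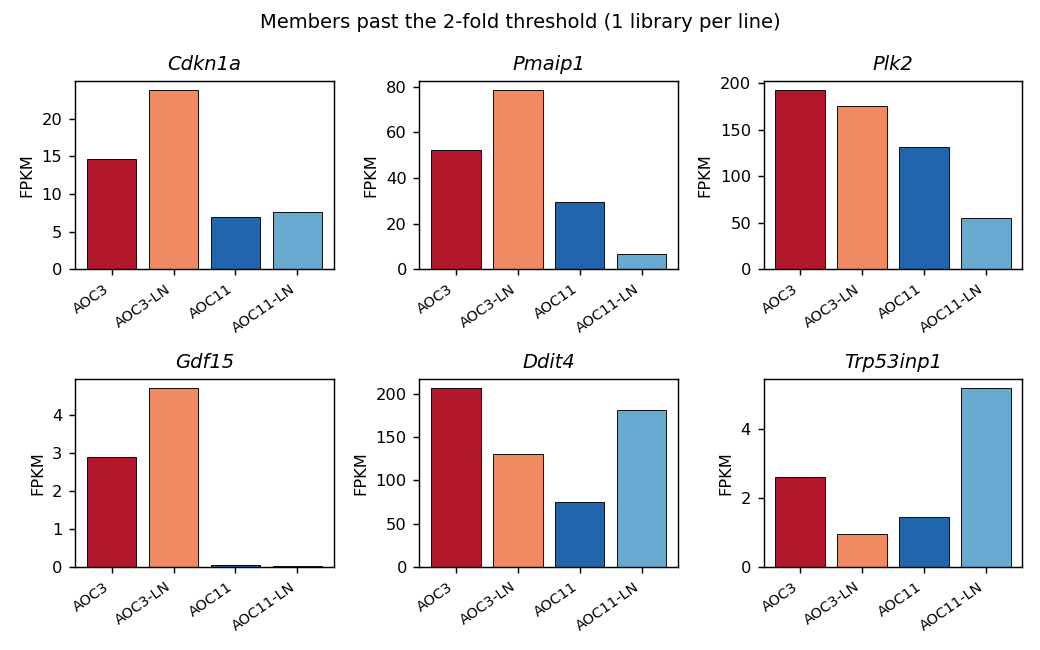
FPKM in each of the 4 lines (bars from 0, 1 library each, no error) for the 6 p53 target genes that passed the 2-fold threshold between the mice or between the lines of a mouse. Cdkn1a, Pmaip1, Plk2 and Gdf15 are higher in both AOC3 lines, and AOC11-LN stands lowest for Pmaip1 and Plk2 and highest for Trp53inp1.

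Comparing the lymph node line of a mouse with its primary line asks whether the cultured line from the metastasis differs from the cultured line from the oral tumor. In this comparison each side is 1 library, so a difference has no replicate check and no test was made. Between AOC3-LN and AOC3, none of the 29 p53 target genes passed the 2-fold threshold, beside 5.53% of all genes, 2.11% higher and 3.42% lower in AOC3-LN. The differences of these genes had a median of 0.14, with 16 above and 13 below 0, beside a median of 0.02 over all genes. The furthest were Plk3 at 0.90 and Gadd45a at -0.87. Cdkn1a differed by 0.71 and Gdf15 by 0.69, both higher in AOC3-LN.

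Between AOC11-LN and AOC11, 4 of the 29 genes (13.8%) passed the threshold, beside 8.11% of all genes. In each direction there were 2 of them (6.90%), beside 4.97% of all genes higher and 3.14% lower in AOC11-LN. Pmaip1 was lower in AOC11-LN by a log2 difference of -1.96, and Plk2 by -1.28. Ddit4 was higher in AOC11-LN by 1.26 and Trp53inp1 by 1.13. The median over the 29 genes was -0.05, with 13 above and 16 below 0, beside -0.02 over all genes. Cdkn1a differed by 0.09 and Bbc3 by 0.31, while Bax was higher in AOC11-LN by 0.62 and Mdm2 differed by -0.76.

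The p53 target genes showed no common direction from primary to lymph node line, and some differed in opposite directions in the 2 mice. Log2 differences above 0.5 in size with opposite signs in the 2 mice were found for 4 of the 29 genes (13.8%), beside 4.74% of all genes. Pmaip1 differed by 0.55 in AOC3-LN and by -1.96 in AOC11-LN. Ddit4 was at -0.65 and 1.26, Trp53inp1 at -0.76 and 1.13, and Gadd45a at -0.87 and 0.81. Ddit4, Trp53inp1 and Gadd45a shared 1 direction and Pmaip1 had the other.

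**Figure D4:**
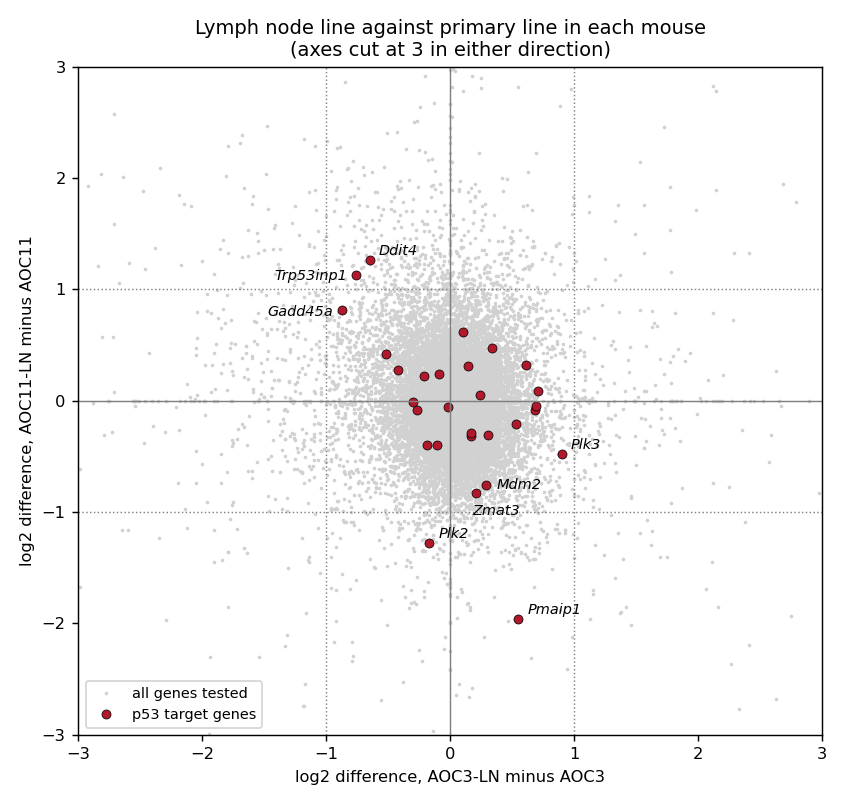
Log2 difference of the lymph node line from the primary line in the mouse of AOC3 (horizontal) and of AOC11 (vertical) for the 29 p53 target genes (red) and all 14165 genes (gray), 1 library per line, axes cut at 3. Ddit4, Trp53inp1 and Gadd45a lie at upper left, Pmaip1 lies at lower right at 0.55 and -1.96, and most p53 target genes lie within the dotted lines at 1 and -1.

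Upstream of these targets, Trp53 itself was abundant in all lines. Trp53 (ENSMUSG00000059552.13, chr11:69580359-69591873) was measured at 104 FPKM in AOC3 and 110 in AOC3-LN, against 76.5 in AOC11 and 82.1 in AOC11-LN. Both AOC3 lines stood above both AOC11 lines by a log2 difference of 0.48 (SE 0.15, limma adjusted p = 0.217). The transcript level does not show whether the protein is made or works. Trp63, which encodes a p53 relative of basal keratinocytes, was low, at 1.69 FPKM in AOC3 and 2.10 in AOC3-LN, against 0.0848 in AOC11 and 0.841 in AOC11-LN, with a difference of 1.12 (SE 0.34, limma adjusted p = 0.202). Trp63 passed the filter only through the AOC3 lines, so its p-value is no support for the difference. Trp73 was listed at 0 in all 4 lines.

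In a list of 31 genes of the p53 family and its regulators, 30 passed the filter and limma called 1, Cop1. Cop1 (ENSMUSG00000040782.12, chr1:159232320-159347640), a ubiquitin ligase whose substrates include c-Jun and p53, was measured at 13.2 FPKM in AOC3 and 12.9 in AOC3-LN, against 63.8 in AOC11 and 61.9 in AOC11-LN. The lines of a mouse were almost equal and the mice stood far apart, with a log2 difference of -2.12 (SE 0.17, limma adjusted p = 0.0350). The call was lost with the site as a replicate block (adjusted p = 0.0604), without the filter (0.177) and without any 1 line (0.205 to 0.366), and the adjusted p ran from 0.0113 to 0.366 over 11 alternatives. The median difference of the list was 0.04. An unadjusted limma p under 0.05 was found for 9 of its 30 genes, Trp63 among them, beside 18.7% of all genes. Sirt1, a deacetylase of p53, had the next largest difference after Cop1 and Trp63, at 0.88 (SE 0.28, limma adjusted p = 0.217).

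A further list of 47 p53 target genes, which shares Tnfrsf10b with the genes above, held more genes that were higher in the AOC11 lines. Of its 38 genes that passed the filter, 1 was higher by more than 2-fold in AOC3 and AOC3-LN and 7 in AOC11 and AOC11-LN, with a median log2 difference of -0.30, beside 5.10% and 6.0% of all genes past 2-fold. limma called none of them at the adjusted threshold and 13 at an unadjusted p under 0.05, beside 18.7% of all genes. Trp53i11, 1 of the 7 past 2-fold, passed the filter only through the AOC11 lines. Psrc1, which encodes a microtubule protein of the mitotic spindle, was measured at 2.31 FPKM in AOC3 and 0.567 in AOC3-LN, against 11.9 in AOC11 and 12.9 in AOC11-LN (log2 difference -2.50, SE 0.38, limma adjusted p = 0.0943). Notch1, the receptor that drives keratinocyte differentiation, was at 2.66, 0.777, 13 and 12.7 FPKM in the same order (log2 difference -2.37, SE 0.37, limma adjusted p = 0.0943). The study's variant list places nonsynonymous variants of Notch1 in both AOC11 lines and lists none for the AOC3 lines. The part of these variants in the values was not tested.

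Cell cycle genes that are repressed when p53 raises p21 were near even between the mice. All 24 passed the filter, none differed by more than 2-fold between the mice, and their median log2 difference was -0.03, with 12 on each side of 0. limma called none at the adjusted threshold and 1 at an unadjusted p under 0.05, beside 18.7% of all genes. Their median level stood at percentile 91.9 of all genes. Plk4, the kinase of centriole duplication, had the largest difference, at -0.85 (SE 0.32, limma adjusted p = 0.255), followed by Rrm2 at -0.49 (SE 0.38) and Aurkb at 0.38 (SE 0.16). Rrm2, the S-phase subunit of ribonucleotide reductase, was measured at 108 FPKM in AOC3 and 133 in AOC3-LN, against 245 in AOC11 and 122 in AOC11-LN.

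Ddit4, Sesn2 and Gdf15 are also targets of ATF4, and Btg2, Plk2 and Plk3 are also immediate early genes, so lists of both kinds were read beside them. Of 22 ATF4 stress response genes, 21 were in the data and passed the filter, while Slc7a5 was not analysed here. Of the 21, 5 exceeded 2-fold toward the AOC3 lines and 1, Nupr1, toward the AOC11 lines, with a median log2 difference of 0.43, or 0.24 without the 3 shared genes. Of all genes 5.10% and 6.0% passed 2-fold in these directions. limma called none at the adjusted threshold and 7 at an unadjusted p under 0.05, beside 18.7% of all genes. Gdf15, counted in the 5 and in the 7, passed the filter only through the AOC3 lines. Nupr1, a stress-induced chromatin protein, was measured at 5.98 FPKM in AOC3 and 0.989 in AOC3-LN, against 43.6 in AOC11 and 89.8 in AOC11-LN (log2 difference -4.01, SE 0.65, limma adjusted p = 0.0965). Chac1, which degrades glutathione, differed by 1.23 (SE 0.34, limma adjusted p = 0.183), and Gdf15 had the second largest difference of the list.

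Of 18 immediate early genes, 16 passed the filter and 5 were more than 2-fold higher in the AOC3 lines, none in the AOC11 lines, with a median log2 difference of 0.72, or 0.73 without the 3 shared genes, beside 5.10% of all genes past 2-fold toward the AOC3 lines. limma called none at the adjusted threshold and 4 at an unadjusted p under 0.05, beside 18.7% of all genes. In AOC3-LN 4 of the 16 were more than 2-fold higher than in AOC3, beside 2.11% of all genes, and in AOC11-LN 4 were more than 2-fold lower than in AOC11, Plk2 among them, beside 3.14% of all genes. Dusp1, a phosphatase of MAP kinases, was measured at 8.13 FPKM in AOC3 and 35.8 in AOC3-LN, against 6.75 in AOC11 and 1.70 in AOC11-LN (log2 difference 2.10, SE 0.87, limma adjusted p = 0.288). Fosl1, a subunit of AP-1, differed by 1.70 (SE 0.39, limma adjusted p = 0.143) and Klf4 by 1.13 (SE 0.41, limma adjusted p = 0.249). The immediate early genes thus leaned in the same direction as Plk2 between the mice, and their part in its difference was not tested. Between the primary lines Dusp1 differed by 0.23, Fosl1 by 1.29 and Klf4 by 0.56, beside 3.98, 2.11 and 1.70 between the lymph node lines. For these 3 genes, as for Plk2 (0.55 and 1.66), the lymph node lines stood further apart than the primary lines.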

How the data were processed

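RNA of 4 cultured lines was sequenced as paired-end reads from a stranded mRNA kit, with 1 library per line. After trimming in Trim Galore and alignment to mm10 in TopHat2, the authors ran Cufflinks on GENCODE M21 at default settings and deposited its FPKM values. A log2 transformation with quantile normalization is named in the methods, but the deposited values are on the linear scale. Tool versions are not given in the sources used here. All 4 value columns belong to a sample of the study, and no columns hold the same values.

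Symbols and positions were taken from GENCODE M21 (34721 entries, 34685 gene identifiers), and for a symbol with several entries the 1 with the highest mean was used. A pseudocount of 1 was added to FPKM, log2 values were taken and quantile normalization was run across all entries. A gene was kept if any line reached 1 FPKM. Log2 differences were counted if above 1 or below -1. limma 3.58.1 in R 4.3.3 (lmFit, eBayes with trend, Benjamini-Hochberg over 14165 genes, threshold 0.05) was fitted to the 4 lines with 2 residual degrees of freedom, and was tested on simulated data first. Since each group is 1 mouse, its p-values measure only the spread between these lines.

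Fragments per library were estimated from 9528 genes with 1 transcript longer than 800 bases: between 72.1% and 75.3% of low values fell within 0.1 of a whole multiple of the fitted step. These estimates cover counting only, and no count test was made.

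The p53 target genes, the other lists and the markers were chosen with earlier results of these data known, so counts over them describe these lines. Values in every line are given for genes past the 2-fold threshold, the 3 highest by mean, Cdkn1a, Mdm2, Bax, Bbc3 and Trp53; other lists are represented by the 3 genes with the largest difference between the mice, 1 of which is not reported here. Alternatives changed the pseudocount, normalization, filter, gene types, fold threshold and lines used, and added the site as a block.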

Additional observations from a re-analysis of the deposited data

Results flagged for a closer look

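The log2 difference between lymph node and primary line had opposite signs in the 2 mice for 4 p53 target genes, each by more than 0.5 in size. Each side is 1 library per line, so the difference between the mice was not tested. For Pmaip1 the value was 0.55 in AOC3-LN and -1.96 in AOC11-LN, a difference of -2.50. For Ddit4 it was -0.65 and 1.26, a difference of 1.91. Trp53inp1 stood at -0.76 and 1.13, a difference of 1.89. Gadd45a stood at -0.87 and 0.81, a difference of 1.68, and its exons overlap those of the antisense gene E230016M11Rik, which went from 8.01 to 5.79 FPKM between AOC3 and AOC3-LN and from 2.76 to 5.87 FPKM between AOC11 and AOC11-LN. The part of the antisense gene in the Gadd45a values was not tested.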

How the results depend on the processing

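For the 8 gene differences past the 2-fold threshold, 63 of 63 alternative values kept the direction and 58 also stayed past the threshold. The other 5 were Cdkn1a at 0.94 without AOC3-LN and 0.98 between primary lines, Pmaip1 at 0.90 between primary lines, and Plk2 at 0.46 without AOC11-LN and 0.55 between primary lines. Among the 63 are the alternatives of the filter, which could not change a difference because normalization was run before it. Those alternatives are therefore no check. The number of p53 target genes past the threshold between the mice was 4, and 3 to 5 when a line was left out, but 8 between the lymph node lines alone, and 3 between the primary lines alone (Gdf15, Ddit4 and Gadd45a), where each side is 1 library. Fas made it 5 with a pseudocount of 0.1 and without quantile normalization. In AOC3-LN against AOC3 it was 0, but 2 with a pseudocount of 0.1 and 8 with a threshold of 1.5-fold, and in AOC11-LN against AOC11 it was 4, but 8 with 1.5-fold. limma called 0 of these genes, and 0 without any 1 line (where a mouse is left with 1 line, assumed to vary like the other pair), but 1 among protein-coding genes only, Gdf15 (adjusted p = 0.0400, and 0.287 without the filter), which passed the filter only through the lines in which it was high. The labels give no replicate numbers, and with the site as a replicate block limma called 0. Over all genes limma called 29 in the fit described, 256 among protein-coding genes only, 50 with at least 5 FPKM, 41 with scaling by the median and 0 without the filter (4247 at an unadjusted p under 0.05) or without any 1 line. Apart from the fewer samples or genes tested, the cause was not tested. Low values, above all of Fas, Eda2r and of Gdf15 in the AOC11 lines, rest on few fragments and limit the size of those differences.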

Other observations

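Cdkn2a, whose gene encodes both p16 and Arf, the inhibitor of Mdm2, was read after its values were seen. It was measured at 282 FPKM in AOC3 and 216 in AOC3-LN, against 137 in AOC11 and 345 in AOC11-LN, and the products share 1 entry, so they cannot be told apart. The groups overlapped, with a log2 difference of 0.19 (SE 0.45, limma adjusted p = 0.843). Between AOC11-LN and AOC11 it differed by 1.28 and between AOC3-LN and AOC3 by -0.40. In both AOC3 lines the study's variant list places a nonsynonymous variant of Cdkn2a and a stop-gain variant of Atm. It lists neither gene for the AOC11 lines, and the part of these variants in the values was not tested. Atf4 itself, also read after its values were seen, lay between 225 and 306 FPKM in the 4 lines, with a difference of -0.16 (SE 0.21), while its targets Atf3 and Ddit3 differed by 1.08 (SE 0.31, limma adjusted p = 0.190) and 1.10 (SE 0.23, limma adjusted p = 0.128).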
